A study of Mus musculus with 2 samples.

Results

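The genes described here are 8 surface molecules through which macrophages stimulate or restrain T cells, or are themselves restrained: Cd86, Cd80, Cd40, Cd274, Pdcd1lg2, Havcr2, Vsir and Sirpa. They were chosen by name and function, not by their counts, and are 8 of the 32285 genes in the deposited matrix. The matrix holds unique molecular identifier (UMI) counts from single nuclei of macrophages sorted out of PyMT mammary tumours, of which 1230 nuclei carried macrophage markers after filtering. The question put to it was in which macrophage states each gene was high or low, and whether the genes followed the MHC class II genes.

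The study used 2 groups of mice, MYC-PyMT, which carry S100a8-cre with the Rosa26-LSL-MYC allele, and control-PyMT, all backcrossed to B6 and kept on a low protein diet. Irradiation of both genotypes at the age of 7 weeks was followed by a graft of marrow, whose donors carried Fcgr1-cre together with Rosa26LSL-H2B-mCherry/+. The diet started 2 weeks after that and lasted 6 weeks. S100a8 is a gene of neutrophils and related myeloid cells, and Fcgr1 encodes the Fc receptor CD64 of macrophages, so the mCherry label marks nuclei that descend from donor cells in which Fcgr1 had been active. Cells were sorted as CD45+ F4/80+ Vcam+ and negative for SiglecF, Ly6G, B220 and Ly6C, and their nuclei as mCherry+ CD11b- SYTO9+. The matrix pools 2 wells, each genotype was 1 sample, and nothing in the labels or the files ties a well to a genotype. No genotype was therefore compared, no p-value was computed, and each well's value is given as that of an unassigned sample. Intervals are 95% intervals and cover counting error only.

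A T cell that recognises a peptide on a class II molecule needs a further signal to become active. CD80 and CD86 give that signal through CD28 and are bound by the inhibitory receptor CTLA-4, while CD40 receives the CD40 ligand of helper T cells and raises the stimulating capacity of the presenting cell. PD-L1, from Cd274, and PD-L2, from Pdcd1lg2, bind the inhibitory receptor PD-1. Havcr2 encodes TIM-3 and Vsir encodes VISTA, both counted among the inhibitory checkpoints. Sirpa encodes the macrophage receptor for CD47, which restrains phagocytosis. Class II molecules (H2-Aa, H2-Ab1, H2-Eb1) are loaded with the help of Cd74 and of H2-DMa, H2-DMb1 and H2-DMb2, and their genes are switched on by Ciita.

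On the mm10 build the genes lay on 5 chromosomes. Cd86 (chr16:36603869-36666081, minus strand) and Cd80 (chr16:38455561-38496335, plus strand) shared chromosome 16 but were 1789 kb apart, with 46 genes between them. Cd274 (chr19:29367455-29388095) and Pdcd1lg2 (chr19:29410919-29471161) were neighbours on the plus strand, 22.8 kb apart with 0 genes between them. Cd40 (chr2:165055627-165072948) and Sirpa (chr2:129592835-129632228) lay on the plus strand of chromosome 2, and Havcr2 (chr11:46454935-46481255) on that of chromosome 11. Vsir (chr10:60346851-60372684, plus strand) lay inside Cdh23, which is on the minus strand.

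Promoters, taken as 250 bases before to 50 bases after a gene's start in RefSeq (GRCm38.p6), were found for 5 of the 8 genes (Cd80, Cd274, Pdcd1lg2, Havcr2, Vsir) and for 5 of the 8 class II genes. Those of Cd80, Cd274 and the class II gene H2-Eb1 are shown because these 3 genes peaked in different macrophage clusters. Capitals mark motif letters, read on both strands. The windows are chr16:38458683-38458982, chr19:29367188-29367487 and chr17:34305617-34305916, all on the plus strand.
Cd80: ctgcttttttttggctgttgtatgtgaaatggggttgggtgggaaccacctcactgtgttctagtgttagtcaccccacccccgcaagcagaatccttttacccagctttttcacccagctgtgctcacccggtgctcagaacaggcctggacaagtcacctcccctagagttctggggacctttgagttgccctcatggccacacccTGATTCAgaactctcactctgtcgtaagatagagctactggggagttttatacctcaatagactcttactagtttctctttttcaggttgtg
Cd274: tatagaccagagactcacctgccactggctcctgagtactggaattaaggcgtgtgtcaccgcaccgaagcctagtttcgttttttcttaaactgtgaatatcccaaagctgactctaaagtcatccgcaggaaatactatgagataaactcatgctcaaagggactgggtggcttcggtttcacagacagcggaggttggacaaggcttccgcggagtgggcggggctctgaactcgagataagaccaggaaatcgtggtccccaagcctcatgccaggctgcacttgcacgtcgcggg
H2-Eb1: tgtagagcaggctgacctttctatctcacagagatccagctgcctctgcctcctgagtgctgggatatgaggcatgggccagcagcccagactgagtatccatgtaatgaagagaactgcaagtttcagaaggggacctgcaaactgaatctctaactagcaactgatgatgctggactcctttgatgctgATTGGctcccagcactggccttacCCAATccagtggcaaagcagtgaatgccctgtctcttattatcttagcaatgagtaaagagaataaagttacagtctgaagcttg
Of the motifs searched, ATTGG, the core of the Y box of class II promoters, was found in H2-Eb1 at -59 and on the other strand at -35 from the start. It occurred in all 5 class II genes with a promoter and in 0 of the 5 costimulatory and checkpoint genes, against 37.4% of the 32851 promoters in the table. H2-DMa had 2 promoters, of which 1 held it, at -198. The AP-1 motif TGANTCA was at -42 in Cd80 and at -200 in Havcr2, against 7.81% of all promoters. Among the class II genes it was at -75 in H2-DMb1 and at -86 in H2-DMa. None of the 5 costimulatory and checkpoint promoters held either of 2 kB motifs searched, which bind NF-kappaB (in 1.63% and 0.107% of all promoters), or the interferon-response motif ISRE (3.44%). The windows of Cd80, H2-DMa and H2-DMb2 lay wholly inside the spans of these genes in GENCODE, the source of the gene positions above. The positions of their matches therefore hold only for the RefSeq starts. A match is a match of letters and not evidence of binding.

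Among the 1230 macrophage nuclei, 847 came from well 1 and 383 from well 2, with 3921388 UMIs in all and medians of 2802 and 2852 UMIs per nucleus. All 12 macrophage markers were detected and summed to 6274 CPM (counts-per-million of summed UMIs), against 436 CPM in the nuclei with epithelial markers; Fcgr1 was at 0 in cluster 7. Clustering, which left the 8 genes and the class II genes out, gave 10 clusters. Markers named 4 of them, besides a cycling one. Cluster 2 (275 nuclei) held 10 of 11 immediate-early markers such as Fos and Jun at 2-fold or more over the other macrophages, and is called immediate-early-like. It also held 8 of 9 inflammatory markers at 2-fold or more, Ccl3 and Ccl4 among them. Its 10 leading genes were not among those markers but included the heat shock chaperone genes Hsph1 (13.4-fold), Hsp90aa1, Dnajb1 and Dnaja1, the co-chaperone Bag3, and Il1b and Il1r2. Cluster 3 (183) was resident-like, with 6 of 9 markers at 2-fold or more (such as Lyve1, Folr2, Cd163) and Timd4, Cd209f and Cd209g at 0. Cluster 7 (67) was inflammatory-like, with 7 of 9 markers at 2-fold or more (such as Il1b, Nlrp3, Tnf, but not Ccl3 or Ccl4). It also held 5 of 11 immediate-early markers at 2-fold or more. Cluster 8 (40) was interferon-like, with 7 of 7 markers at 2-fold or more (such as Ifit3, Rsad2, Isg15). The wells were unevenly spread over the clusters. Well 1 gave 274 of the 275 nuclei of cluster 2, 64 of the 67 of cluster 7 and 319 of the 332 of the unnamed cluster 1, whereas well 2 gave 149 of 183 in cluster 3 and 121 of 130 in the unnamed cluster 4. For clusters 1, 2 and 7, state and well can be told apart only by comparison within well 1. It is given beside the main results of the costimulatory and checkpoint genes, but not for the class II genes by cluster.

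Cd86 had the most UMIs of the 8 genes. Its 6249 UMIs made a level of 1594 CPM (1554 to 1634) over all macrophage nuclei. Sirpa followed with 797 CPM, then Havcr2 with 258, Vsir with 244, Cd274 with 59.2, Cd40 with 50.7, Cd80 with 30.3 and Pdcd1lg2 with 2.30 CPM, the last from 9 UMIs. Divided by the length of their exons, the level was 435 CPM per kb for Cd86, against 162 for Sirpa, 94.8 for Havcr2, 48.6 for Vsir, 16.3 for Cd274, 14.9 for Cd40, 8.20 for Cd80 and 1.17 for Pdcd1lg2. Divided by the whole gene span, which counts if reads from introns were included (not given in the sources used here), it was 25.6 CPM per kb for Cd86, 20.2 for Sirpa, 9.80 for Havcr2, 9.44 for Vsir, 2.93 for Cd40, 2.87 for Cd274, 0.744 for Cd80 and 0.0381 for Pdcd1lg2. Cd86 exceeded the other CD28 ligand, Cd80, on all 3 scales, while its lead over Sirpa was small per kb of span. After every nucleus was thinned to 1000 UMIs, which left out 63 shallower nuclei, 52.0% of 1167 macrophage nuclei had a Cd86 UMI and 2.31% a Cd80 UMI. The unthinned shares were 72.4% for Cd86 and 6.18% for Cd80.

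Nuclei with epithelial markers gave the share taken as background. Whether those nuclei transcribe any of these genes themselves was not tested. Thinned the same way, 238 of 253 such nuclei were deep enough and had a Cd86 UMI in 1.68%, Sirpa in 5.04%, Havcr2 in 1.26%, Vsir in 0.840%, and Cd80 and Cd274 in 0.420% each. Cd40 was seen in 0 of 238, which allows a share of up to 1.54%. The median depth before thinning was 5619 UMIs in these nuclei and 2838 UMIs in macrophage nuclei. For 7 genes the macrophage share was the higher one, but the 2.31% of Cd80 over all macrophages lay inside the background's interval, which reached 2.32%. Pdcd1lg2 was seen in 0.171% of thinned macrophage nuclei, below the 1.54% that 0 of 238 allows, so its level could not be told from background and it is not compared further.

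**Figure D1:**
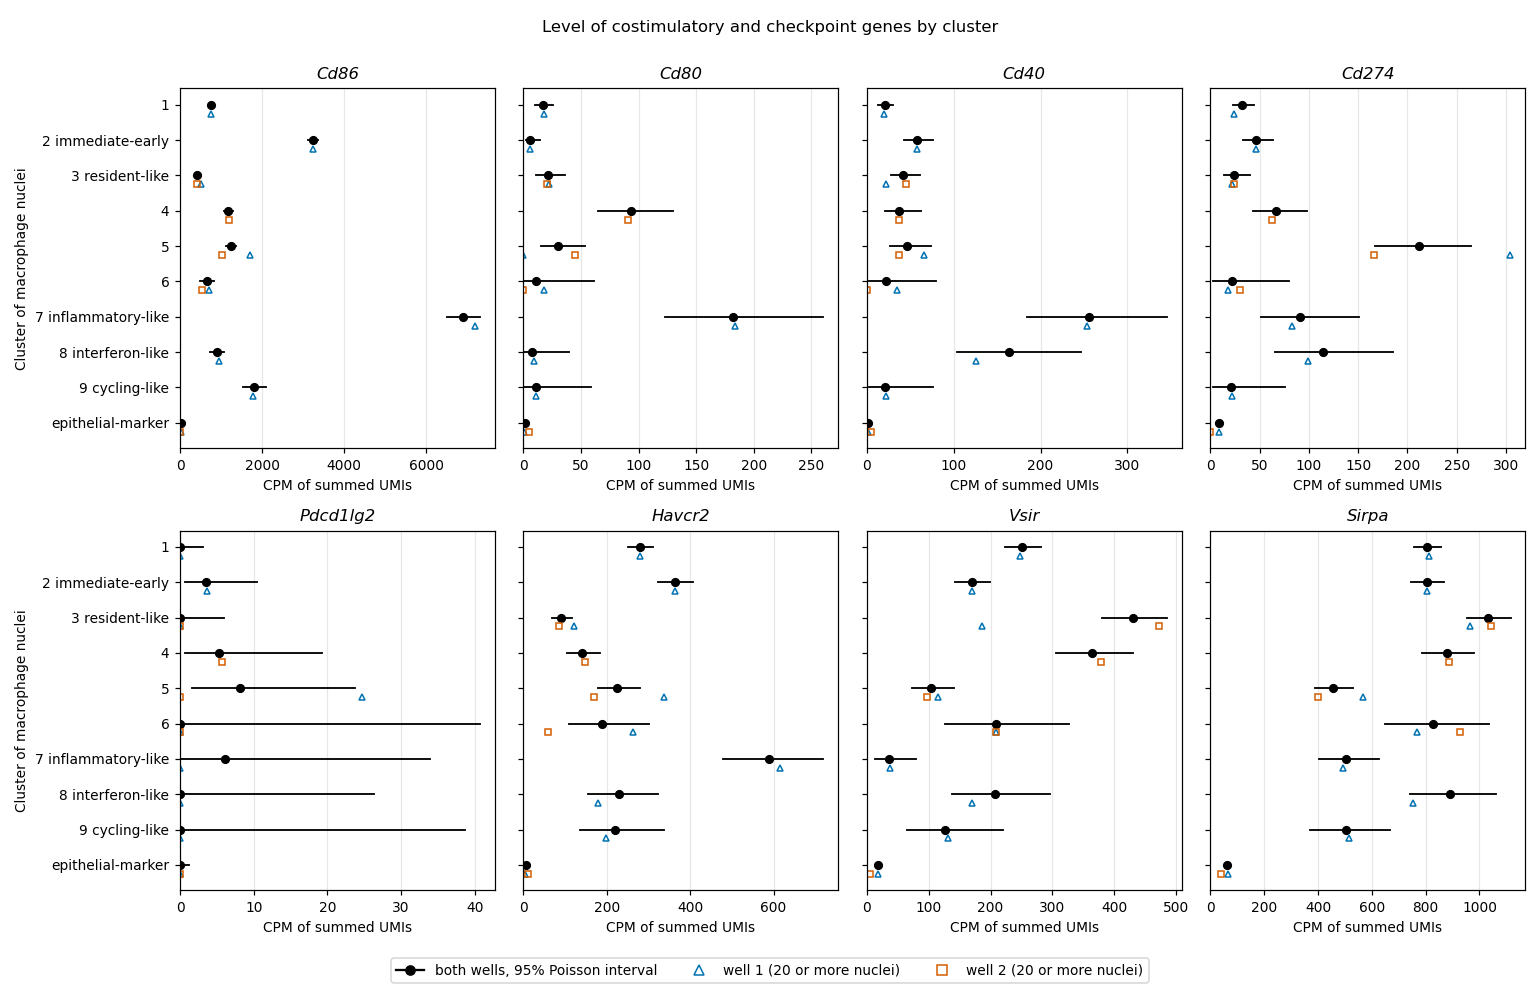
Level of each gene in CPM of summed UMIs (horizontal axes, each from 0) in the macrophage clusters other than cluster 10 and in nuclei with epithelial markers (vertical axes). Both wells together are in black (bars: 95% Poisson interval), with well 1 as blue triangles and well 2 as orange squares where a well gave 20 or more nuclei. With both wells together, Cd86, Cd80 and Cd40 peaked in cluster 7, Cd274 in cluster 5 and Vsir in cluster 3.

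The costimulatory genes stood highest in the inflammatory-like cluster 7. Cd86 reached 6889 CPM there (6494 to 7302), from 1133 UMIs in 92.5% of its nuclei, against 1362 CPM in the other macrophages, a ratio of 5.06 (4.74 to 5.40). The order below it ran through cluster 2 with 3229 CPM, the cycling cluster 9 with 1801, cluster 5 with 1241, cluster 4 with 1179, cluster 8 with 890.9, cluster 1 with 746.5, cluster 6 with 650.6, the resident-like cluster 3 with 420.9 and cluster 10 with 197.6 CPM. The intervals of clusters 5 and 4, of 8 and 1, of 8 and 6, of 1 and 6, and of 3 and 10 overlapped. Those of the 3 highest clusters did not, but 54 of the 172 Cd86 UMIs of cluster 9 came from 1 nucleus. The ratio of cluster 9 within well 1 was 0.896 (0.761 to 1.05). That order pools both wells, and over all macrophages Cd86 stood at 1977 CPM in well 1 and 774 CPM in well 2. Among clusters with 20 or more nuclei in well 2, cluster 4 was highest there, at 1189 CPM (1078 to 1308). Its interval overlapped that of cluster 5 in well 2, at 1017 CPM (895 to 1151). Within well 1, Cd86 stood at 7180 CPM in cluster 7 and at 1651 CPM in the other nuclei, a ratio of 4.35 (4.07 to 4.65). All 1133 UMIs of cluster 7 came from well 1, and its 3 nuclei of well 2, with 6656 UMIs in all, had 0. After thinning, 58 of 60 nuclei of cluster 7, or 96.7%, still had a Cd86 UMI.

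Cd80 and Cd40 were sparse genes whose highest level was also in cluster 7, though each had another cluster with an overlapping interval, cluster 4 for Cd80 (64.9 to 130) and cluster 8 for Cd40 (104 to 246). Cd80 stood at 182 CPM (123 to 260) in cluster 7, from 30 UMIs, and at 23.7 CPM in the other macrophages, a ratio of 7.70 (4.91 to 11.8). Within well 1 the ratio was 13.2 (7.78 to 22.2), with 184 CPM in the cluster and 13.9 CPM elsewhere. Cd40 stood at 255 CPM (184 to 345) in cluster 7 and at 41.8 CPM in the others, a ratio of 6.11 (4.24 to 8.64), and of 6.31 within well 1. Thinned nuclei of cluster 7 had a Cd80 UMI in 15% and a Cd40 UMI in 16.7%, against 2.31% and 4.63% of all macrophage nuclei. In a cluster where 62 of 67 nuclei had a Cd86 UMI, 12 of the 13 nuclei with Cd80 and 18 of the 19 with Cd40 also had Cd86, and 6 had both Cd80 and Cd40.

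Checkpoint genes in cluster 7 went in different directions. Havcr2 was at 590 CPM there and at 244 CPM in the other macrophages, a ratio of 2.42 (1.94 to 2.99), and of 2.07 within well 1. Vsir was at 36.5 CPM, from 6 UMIs, against 253 CPM, a ratio of 0.144 (0.0528 to 0.315), and of 0.188 within well 1. Sirpa was at 505 CPM against 810 CPM, a ratio of 0.623 (0.495 to 0.775), and of 0.629 within well 1. Cd274 was at 91.2 CPM against 57.8 CPM, a ratio of 1.58 whose interval, 0.869 to 2.66, included 1, as did that of 1.66 within well 1. Counting a gene as called when its ratio reached 2-fold and it had 30 or more UMIs in the nuclei compared, 4 of 7 genes were higher in cluster 7, where 7.2% of all 9197 genes were, and 1 was lower, where 40.7% were. The median log2 ratio was 1.28 over the 7 genes and -0.53 over all genes. The single lower call for Vsir thus fell in a cluster where lower calls were common. Summed markers of epithelial cells stood at 888 CPM in cluster 7, within the 117 to 974 CPM of the macrophage clusters, monocyte markers at 12.2 CPM with 6 of 7 at 0, and dendritic cell markers at 54.7 CPM with Flt3, Zbtb46, Xcr1, Cd209a, Ccr7 and Fscn1 at 0.

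Which nuclei make up cluster 7 depended on the clustering, and Cd80 and Havcr2 depended on it with them. With another random seed the closest cluster had a Jaccard overlap of 0.351 with it and had ratios of 5.11 for Cd86, 2.63 for Cd80, 3.59 for Cd40 and 1.88 for Havcr2. At the coarser resolution of 0.5 clusters 2 and 7 fell into 1 cluster, with ratios of 4.66 for Cd86 and 2.39 for Cd40, but 1.23 for Cd80 and 1.97 for Havcr2. When nuclei were instead assigned to the state whose marker genes had the most UMIs, 98 inflammatory nuclei had ratios of 2.77 for Cd86, 2.72 for Cd80, 2.54 for Cd40, 1.73 for Havcr2 and 0.448 for Vsir. Cd86 and Cd40 passed 2-fold under each of these definitions.

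**Figure D2:**
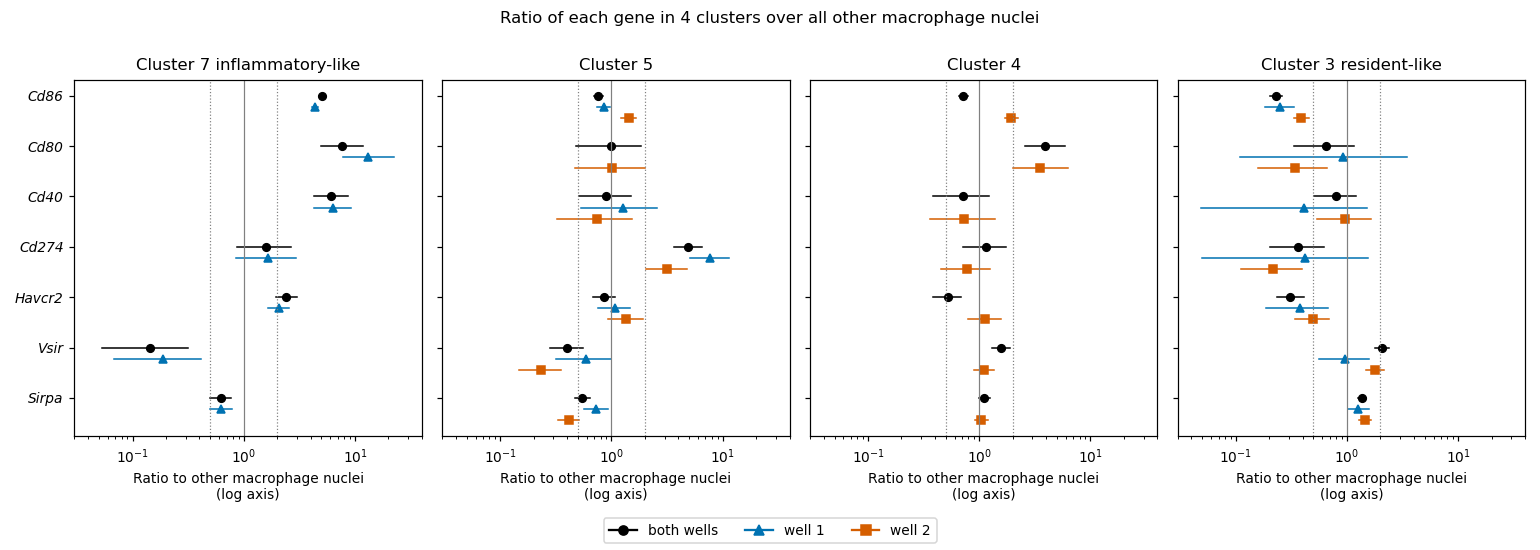
Ratio of the CPM in clusters 7, 5, 4 and 3 to that in all other macrophage nuclei (log axis, 1 means equal) for 7 genes, with both wells together and each well alone where it gave 20 or more nuclei, and 95% exact intervals. Cd86, Cd80, Cd40 and Havcr2 lay above 2 in cluster 7, Cd274 in cluster 5 and Cd80 in cluster 4.

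The immediate-early-like state showed part of this pattern. In cluster 2, which also held 8 of the 9 inflammatory markers at 2-fold or more, Cd86 was at 3229 CPM against 1149 CPM in the other macrophages, a ratio of 2.81 (2.67 to 2.95), and of 2.31 within well 1. Cd80 was low, with 5 UMIs or 5.97 CPM against 37.0 CPM, a ratio of 0.161 (0.0514 to 0.388), and of 0.187 within well 1. Cd40 had a ratio of 1.17 (0.827 to 1.63) and of 1.14 within well 1, and Havcr2 of 1.58 and of 1.24 (1.07 to 1.42) within well 1. Of the 7 genes 1, Cd86, was called higher against 3.13% of all genes, and 1, Cd80, lower against 12.6%. Neither call held under every setting. The Cd86 ratio of cluster 2 was 1.55 with another seed, 1.24 at resolution 1.2 and 1.70 with a minimum of 1000 UMIs per nucleus, each short of 2-fold, and ran up to 4.66 at resolution 0.5. The low Cd80 of cluster 2 turned to a ratio of 1.23 at resolution 0.5 and 1.49 when nuclei were assigned by markers.

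Cd274, the gene of PD-L1, peaked elsewhere. It stood at 212 CPM (167 to 264) in the unnamed cluster 5, from 78 UMIs, and at 43.3 CPM in the other macrophages, a ratio of 4.89 (3.67 to 6.46). The difference was present in both wells, with 304 CPM against 39.6 CPM in well 1, a ratio of 7.68, and 166 CPM against 52.8 CPM in well 2, a ratio of 3.15. Cluster 8 with 114 CPM, cluster 7 with 91.2 and cluster 4 with 66.5 followed and had overlapping intervals; cluster 5's interval overlapped only that of cluster 8 (65.2 to 185) and of the 10 nuclei of cluster 10, which had 2 UMIs. Thinned, 18 of 93 nuclei of cluster 5, or 19.4%, had a Cd274 UMI, against 4.97% of all macrophage nuclei. Another seed gave a ratio of 4.68 and resolution 0.5 gave 4.74.

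Cluster 5 held 102 nuclei, 40 from well 1 and 62 from well 2, and mixed several programmes. It had 4 of 8 lipid-associated markers (Gpnmb, Spp1, Fabp5, Cd9) and 5 of 7 interferon markers (Ifit1, Ifit2, Rsad2, Cxcl10, Oasl1) at 2-fold or more, and Hdc among its 10 leading genes. T cell markers summed to 109 CPM, against 0 to 12.2 CPM in the other clusters, with Cd3e, Cd3g and Themis at 0. Mast cell markers summed to 185 CPM, against 0 to 3.21 CPM, with Cpa3, Fcer1a and Tpsb2 at 0. Macrophage markers summed to 3812 CPM, the lowest of the 10 clusters. The part of these transcripts in the Cd274 level was not tested. With both wells together the other genes were not raised there. Vsir was at 103 CPM against 258 CPM, a ratio of 0.399 (0.281 to 0.552), Sirpa at 456 CPM against 833 CPM, a ratio of 0.548, and Cd86, Cd80, Cd40 and Havcr2 had ratios between 0.761 and 0.983. Within well 2, however, Cd86 had a ratio of 1.43 (1.23 to 1.65) and Havcr2 of 1.34 (0.925 to 1.92). Of the 7 genes 1 was called higher in cluster 5 against 9.01% of all genes, and 1 lower against 19.8%.

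The interferon-like cluster 8 carried Cd40. The gene stood at 164 CPM (104 to 246) there, from 23 UMIs in 12 of 40 nuclei, against 46.5 CPM in the other macrophages, a ratio of 3.52 (2.18 to 5.46). In well 1, 32 nuclei gave 126 CPM, and the ratio was 2.53 (1.35 to 4.40); in well 2, 8 nuclei gave 313 CPM, and 7 of their 9 UMIs came from a single nucleus. Cd274 was at 114 CPM against 57.1 CPM, a ratio of 1.996 (1.12 to 3.32) that fell just short of 2-fold, and reached 2.67 when nuclei were assigned by markers. Cd86 had a ratio of 0.550 (0.457 to 0.657). Cd80 rested on 1 UMI, with a ratio of 0.228 (0.00573 to 1.30). Of the 7 genes 1 was called higher against 8.05% of all genes, and 1, Cd80, lower against 20.1%.

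With both wells together, Vsir and Sirpa stood highest in the resident-like cluster 3. Vsir stood at 430 CPM (380 to 485) in cluster 3, ahead of cluster 4 with 365 CPM (306 to 431) and cluster 1 with 251 CPM, and at 209 CPM in the nuclei outside cluster 3, a ratio of 2.06 (1.79 to 2.38). Within the wells the ratio was lower, 1.79 (1.47 to 2.17) in well 2 and 0.968 (0.559 to 1.56) in well 1, where 34 nuclei gave 17 UMIs. In well 1 Vsir was raised in cluster 1 instead, at 247 CPM and a ratio of 1.63 (1.36 to 1.94). Well 2 as a whole had more Vsir than well 1, 353 CPM and 193 CPM. Sirpa was at 1033 CPM against 753 CPM, a ratio of 1.37 (1.26 to 1.5), with 1.27 in well 1 and 1.45 in well 2, and varied least of the 7 genes over the clusters, between 456 and 1033 CPM. The Sirpa interval of cluster 3 (955 to 1116) overlapped those of clusters 4, 6 and 8, and Sirpa was not called there. Cdh23, whose span includes Vsir on the other strand, was at 45.0 CPM in cluster 3, 66.9 CPM in cluster 7 and 86.2 CPM over all macrophages. Whether reads from Cdh23 enter the Vsir level was not tested. Sirpb1a, Sirpb1b and Sirpb1c, genes related to Sirpa, had 29.8, 50.5 and 53.3 CPM over all macrophages, where Sirpa had 797 CPM.

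Cd86, Havcr2 and Cd274 were low in cluster 3. Cd86 was at 421 CPM against 1815 CPM in the other macrophages, a ratio of 0.232 (0.204 to 0.262), Havcr2 at 89.95 CPM against 290 CPM, a ratio of 0.310 (0.233 to 0.407), and Cd274 at 24.1 CPM against 65.8 CPM, a ratio of 0.366 (0.202 to 0.618). The Cd86 ratio was 0.249 in well 1 and 0.389 in well 2, and Havcr2 had 0.375 and 0.490. The Cd274 ratio was 0.217 (0.111 to 0.392) in well 2, and well 1 gave 2 UMIs. Cd80 with 0.650 (0.335 to 1.16) and Cd40 with 0.796 (0.506 to 1.21) were not called. Cd86, Havcr2 and Cd274 also stayed below 0.5 when nuclei were assigned by markers, at 0.208, 0.130 and 0.496. Of the 7 genes 1, Vsir, was called higher in cluster 3 against 7.15% of all genes, and 3 were lower against 10.4%. In cluster 1, the largest with 332 nuclei, none was higher against 5.08%, and Cd86 (0.381), Cd80 (0.466), Cd40 (0.316) and Cd274 (0.452) were lower against 10.7%. Within well 1 the ratios of cluster 1 were 0.258 for Cd86, 0.260 for Cd40 and 0.340 for Cd274, and 0.607 (0.339 to 1.05) for Cd80. Clusters 6, 9 and 10, with 70, 21 and 10 nuclei, had 0 genes higher (9.05%, 12.8% and 14.9% of all genes) and 4, 3 and 2 lower (20.3%, 22.9% and 37.6%), mostly from 1 or 2 UMIs a gene.

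Cd80 had a further peak in the unnamed cluster 4. There it stood at 93.1 CPM (64.9 to 130) from 35 UMIs, against 23.7 CPM in the other macrophages, a ratio of 3.93 (2.57 to 5.90), and of 3.52 (1.996 to 6.30) within well 2. The other CD28 ligand moved with the wells: the Cd86 ratio of cluster 4 was 0.720 (0.652 to 0.793) with both wells together, but 1.95 (1.71 to 2.22) within well 2, where the cluster had 1189 CPM and the other nuclei 610 CPM. Of the 7 genes 1 was called higher against 7.79% of all genes and 0 lower against 14%. Cluster 4 also had the highest class II sum with both wells together. There 7 of the 8 class II genes were at 2-fold or more and Cd74 at 1.35. Of the 7, H2-DMb2 had 6 UMIs in cluster 4 and 15 over all macrophages, under the minimum of 30 for a comparison. Cd74 was highest in cluster 8, at 2929 CPM against 2605 CPM in cluster 4, with overlapping intervals. The leading genes of cluster 4 included Flt3, Mgl2 and Vcan. Of the monocyte markers 6 of 7 were at 2-fold or more, at 1514 CPM summed against 0 to 313 CPM in the other clusters, with 0 of 7 at 0. Of the dendritic cell markers 4 of 9 (Flt3, Cd209a, Ccr7, Fscn1) were at 2-fold or more, at 200 CPM summed against 21.7 to 149 CPM, with Xcr1, Clec9a and Siglech at 0. Their part in the Cd80 level was not tested.

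Over the clusters, none of the 7 genes compared was highest in cluster 4, where the class II sum was highest. The Cd80 interval of cluster 4 overlapped that of cluster 7, however. The 8 class II genes summed to 10053 CPM in cluster 4, 8118 in cluster 8, 6892 in cluster 6, 6884 in cluster 1, 6750 in cluster 2, 4979.8 in cluster 7, 4251 in cluster 9, 2845 in cluster 3, 2494 in cluster 10 and 2015 in cluster 5. The inflammatory-like cluster 7, highest for Cd86, Cd80 and Cd40, was thus in the lower part of the class II order, with ratios to the other macrophages of 0.385 for Ciita, 0.714 for H2-Aa, 0.870 for H2-Ab1, 0.915 for H2-Eb1 and 0.940 for Cd74. These sums and ratios pool both wells, so state and well are not told apart in them. Cluster 5, highest for Cd274, was the lowest in class II, with Ciita at 13.6 CPM against 355 CPM. Its class II sum was 4408 CPM in well 1 and 835 CPM in well 2, while Cd274 was raised in both. Cluster 3 was low in class II as it was in Cd86. Over the 9 clusters with 20 or more nuclei, Pearson's r with the class II sum was 0.07 for Cd86, -0.01 for Cd80, 0.06 for Cd40, -0.21 for Cd274, 0.15 for Havcr2, 0.26 for Vsir and 0.50 for Sirpa. These values only describe 9 points that share the 2 wells and range in depth from 90681 to 1185544 UMIs.

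**Figure D3:**
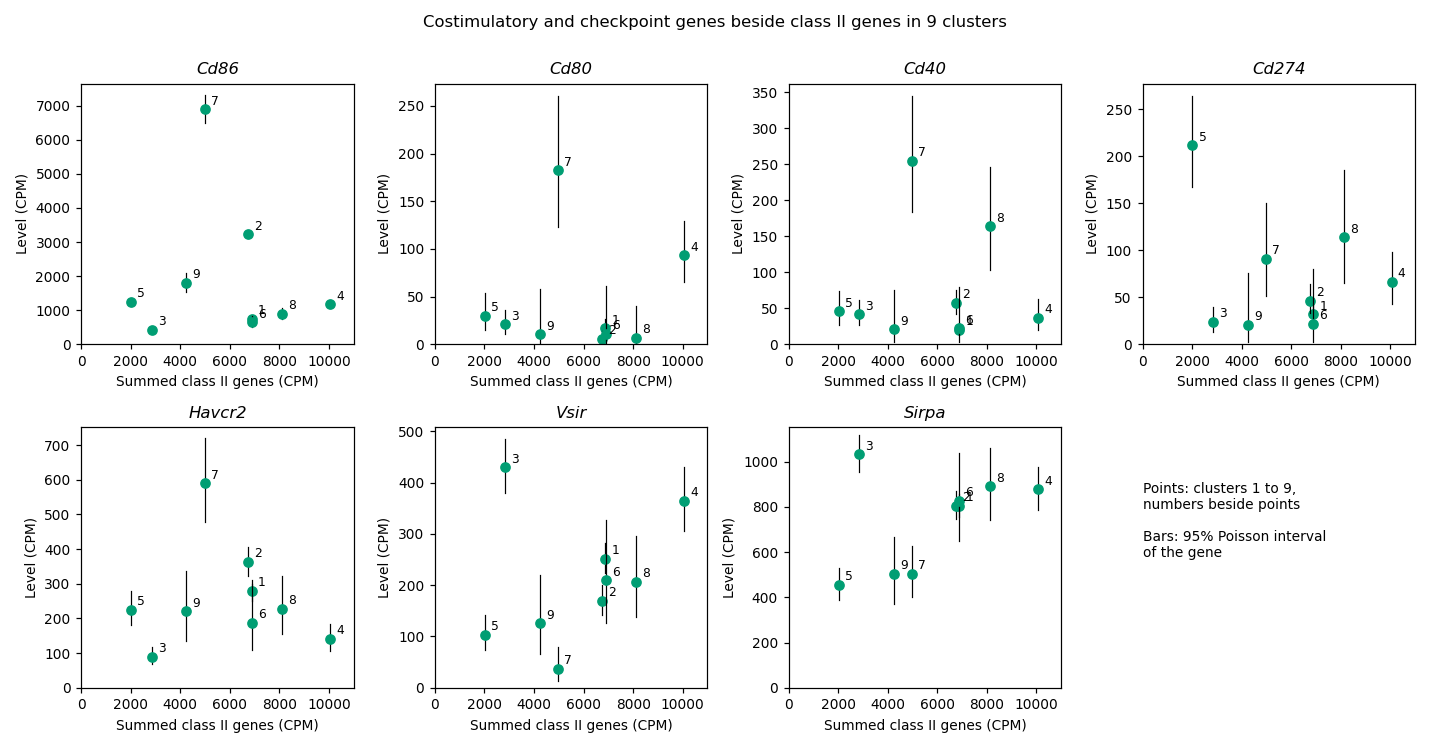
Level of 7 genes (vertical axes, CPM) against the summed level of the 8 class II genes (horizontal axes, CPM), 1 numbered point for each macrophage cluster of 20 or more nuclei. Cluster 7, at a class II sum of 4979.8 CPM, lies far above the rest for Cd86 and is highest for Cd80 and Cd40, where its interval overlaps that of cluster 4 and cluster 8; cluster 5, at 2015 CPM, is highest for Cd274.

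From nucleus to nucleus the question was put without clusters. The macrophage nuclei with 1000 or more UMIs were thinned to 1000, ranked by their class II UMIs and divided into terciles of 389 nuclei, whose class II sums were 1660, 5232 and 10581 CPM from low to high. Cd86 stood at 1315, 1922 and 1559 CPM in the low, middle and high terciles, a ratio of high over low of 1.19 (1.11 to 1.26). Cd80 had a ratio of 1.22 (0.772 to 1.94), Cd40 of 1.31 (0.910 to 1.90), Havcr2 of 1.17 (1.001 to 1.37), Vsir of 1.35 (1.15 to 1.57) and Sirpa of 1.02 (0.938 to 1.12). None of the 7 genes was called higher in the high tercile, where 2.97% of 8257 genes were. The class II genes, which made the ranking, had ratios of 3.19 to 8.05, and the class I genes, which did not, of 1.01 to 1.52. These ratios depended on the well. With each well ranked alone, Cd86 had 0.870 (0.813 to 0.930) in well 1 and 1.36 (1.17 to 1.58) in well 2, and Havcr2 0.781 (0.658 to 0.927) and 1.59 (1.08 to 2.38), so both changed direction. Sirpa had 0.935 in well 1 and 1.64 (1.40 to 1.91) in well 2, Cd40 had 1.16 and 1.32, and Vsir had 1.62 and 1.67. Cd80 reached 2.65 (1.31 to 5.82) in well 1, from 33 UMIs in the high and 11 in the low tercile, and 1.35 in well 2. Without cluster 5, an alternative added after these values were seen, Cd86 had a ratio of 0.994 and Vsir of 1.05 (0.899 to 1.22).

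Cd274 went the other way. It stood at 89.1, 53.0 and 33.7 CPM in the low, middle and high terciles, a ratio of 0.379 (0.263 to 0.538), with 0.417 in well 1 and 0.481 in well 2. It was the 1 gene of 7 called lower, against 4.41% of all genes. Cluster 5 supplied 68 of the 389 nuclei of the low tercile and 62 of its 116 Cd274 UMIs, but 8 nuclei of the high tercile. Without cluster 5 Cd274 had a ratio of 0.791 (0.524 to 1.19) and was not called. With another seed the ratio was 0.503, just inside 2-fold.

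Ranking within each cluster and well, so that the terciles held alike shares of every cluster, left 368, 362 and 358 nuclei. None of the 7 genes was then called in either direction, against 1.97% of 7982 genes higher and 1.62% lower. Cd86 had a ratio of 0.967 (0.909 to 1.03), Havcr2 of 0.909 and Cd274 of 0.581 (0.410 to 0.818). Vsir was higher in the class II-high nuclei by a small margin, with 292 CPM in the high and 202 CPM in the low tercile, a ratio of 1.44 (1.22 to 1.70).

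Within the class II-rich cluster 4 the same ranking gave lower Cd86, Cd80 and Cd274 in the class II-high nuclei. Cd86 stood at 1675, 1268 and 821 CPM from the low to the high tercile, a ratio of 0.490 (0.383 to 0.626). Cd80 stood at 153, 83.3 and 57.6 CPM, a ratio of 0.376 (0.138 to 0.945) from 8 UMIs in the high and 15 in the low tercile. Cd274 stood at 143, 27.8 and 28.8 CPM, a ratio of 0.201 (0.0483 to 0.642) from 4 UMIs in the high and 14 in the low tercile. Vsir and Sirpa ran the other way, with ratios of 1.70 (1.07 to 2.77) and 1.58 (1.16 to 2.18). The Cd86 ratio was 1.01 within cluster 1, 0.929 within cluster 2, 1.18 within cluster 3 and 1.52 (1.22 to 1.90) within cluster 5. Elsewhere Vsir had 1.82 (1.2 to 2.81) within cluster 2, Sirpa 1.49 (1.22 to 1.84) within cluster 3 and Cd274 0.476 (0.207 to 1.03) within cluster 2. The difference between cluster 4 and the others was not tested, since all nuclei come from 1 pooled matrix.

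**Figure D4:**
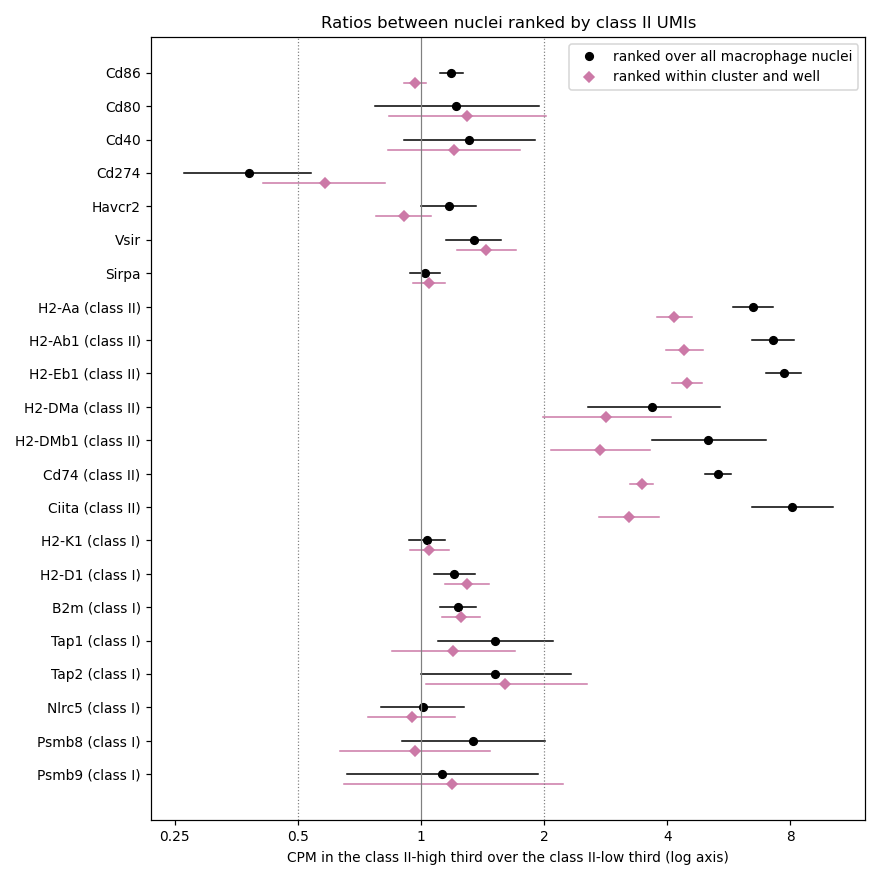
Ratio of the CPM in the class II-high to that in the class II-low tercile of macrophage nuclei (log axis) with 95% exact intervals, for the costimulatory and checkpoint genes, the class II genes and the class I genes, ranked over all nuclei and within each cluster and well. The class II genes, which define the ranking, lie above 2, while the other genes lie between 0.909 and 1.60 except Cd274, at 0.379 over all nuclei and 0.581 within cluster and well.

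Of 54 further genes of costimulation, checkpoints and their signalling, 31 had enough UMIs to be compared. In cluster 7, 7 of the 31 were higher, where 7.2% of all genes were, and 8 lower, where 40.7% were. The higher ones included Nfkb1, a subunit of NF-kappaB, with 3916 CPM against 551 CPM and a ratio of 7.10 (6.49 to 7.76), Relb with 2.44, and Traf3, an adaptor of CD40 signalling, with 3.87 (3.41 to 4.38). Pvr, a ligand of DNAM-1 and TIGIT, had a ratio of 3.66 (2.30 to 5.61), and the adhesion molecule Icam1 had 2.29. Within well 1 the ratios were 6.66 for Nfkb1, 2.39 for Relb, 3.61 for Traf3, 3.78 for Pvr and 1.85 (1.35 to 2.50) for Icam1. Among the lower ones were Cd48, the ligand of CD2 and 2B4, with 2 UMIs and a ratio of 0.113 (0.0137 to 0.412), and the inhibitory collagen receptor Lair1 with 207 CPM against 995 CPM and a ratio of 0.208, or 0.165 within well 1. In cluster 4, 4 of the 31 were higher, against 7.79% of all genes, and 5 lower, against 14%. Tnfsf9, the ligand of the costimulatory receptor 4-1BB, led them with 69.2 CPM against 7.05 CPM and a ratio of 9.81 (5.45 to 17.7), and Lair1 was low at 0.241. Within well 2 Tnfsf9 had 10.96 (4.41 to 32.6) and Lair1 0.472 (0.371 to 0.593).

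In the interferon-like cluster 8, 6 of the 31 were higher, against 8.05% of all genes, and 2 were lower, against 20.1%. The lower ones, Cd24a and Cd200r1, had 0 UMIs in a cluster where 3 counts make 21.4 CPM, as did Siglece in cluster 7, so their levels there are not bounded usefully. In cluster 2, 3 were higher against 3.13% of all genes and 3 lower against 12.6%. The higher ones included Icam1 with 3.20 (2.70 to 3.79), and 2.73 within well 1, and Lag3 with 3.03 (1.38 to 6.53), and 2.80 within well 1. In cluster 3, 2 were higher against 7.15% and 8 lower against 10.4%. Ceacam1, a reported ligand of TIM-3, had a ratio of 3.82 (1.96 to 7.28) there, but of 1.53 (0.720 to 3.29) within well 2, and well 1 gave 1 UMI. In cluster 5, 1 was higher against 9.01% and 4 lower against 19.8%, including Lair1 with 0.271 (0.221 to 0.330), and 0.420 and 0.313 in wells 1 and 2.

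The genes whose levels were most like those of each of the 7, over 15 finer clusters and 5913 genes, were not class II genes. Cd86 was most like Nfe2l2, Rel, Clic4, Tlr2 and Fbxo34, with r of 0.93 to 0.94, where Rel is a subunit of NF-kappaB and Tlr2 a receptor for bacterial lipopeptides; with the class II genes its r ran from -0.46 for H2-DMa to 0.46 for Cd74. Cd80 was most like Ppp2ca, Eif3j1, Map2k3, Antxr2 and Btg3 (0.76 to 0.84). Cd40 was most like A930037H05Rik, Casp4, Ripk2, Rab7b and Synj1 (0.80 to 0.88), where Casp4 and Ripk2 act in the sensing of bacterial products. Cd274 was most like Rars, Lgals3, Fam222b, Sgk1 and Tgm2 (0.75 to 0.78). Havcr2 was most like Retreg1, Cxcl16, Ifngr2, Creb5 and Fmnl2 (0.94 to 0.98), Vsir like Phc3, Msl1, Ctdsp2, Rreb1 and Rnf130 (0.91 to 0.94), and Sirpa like Tnfrsf11a, Slc7a7, Mef2a, Tab1 and Zfp266 (0.80 to 0.85). The highest r with a class II gene was 0.70, between Vsir and H2-DMa. These correlations describe 15 points that share the 2 wells and were picked as the highest of many.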

How the data were processed

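Nuclei of sorted tumour macrophages were profiled with 10x Chromium 3' v3 chemistry, per the labels' protocols. Per the submitters' processing notes Cell Ranger 5.0 and mm10 were used, and per the file headers the software was 5.0.1. The deposited values are raw UMI counts per gene and barcode: 7381447 UMIs in 1838 barcodes, 1383 in well 1 and 455 in well 2 (medians of 2487 and 2834 UMIs). Annotation, intron counting and strand setting: not given in the sources used here, so reads of a gene and an antisense partner (Cdh23 for Vsir, AC119228.1 for Cd274, A930007I19Rik for Pdcd1lg2) cannot be told apart.

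Barcodes under 500 UMIs (11) or 300 genes (5) or over 5% mitochondrial UMIs (9), 21 in all, were removed, as were the doublets Scrublet marked per well (0 in well 1, 5 or 1.14% in well 2), leaving 1812 nuclei. Of 9 barcode sequences present in both wells, 12 kept nuclei carried one, and 0 of these were macrophage nuclei. Counts were scaled to 10000 per nucleus and logged, 2000 variable genes without the 8 genes, the class II genes and the 54 further genes were taken to 30 components and 15 neighbours, and Leiden clusters made at 0.5 (all nuclei) and 0.8 (macrophage nuclei) with scanpy 1.11.5 and igraph 0.11.9 in Python 3.11.15. By markers 1230 nuclei (67.9%) were macrophages, 253 epithelial, 318 low in counts with mixed markers and 11 other. Levels are CPM of summed UMIs with exact Poisson intervals, shares have exact Clopper-Pearson intervals, and ratios exact conditional binomial intervals (scipy 1.17.1). A gene was compared at 30 or more UMIs in the nuclei compared and called at 2-fold; 3 counts are the floor for 0. Gene positions are from GENCODE vM21.

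Named were the 8 genes, the class II genes, up to 12 of the 54 further genes with a ratio of at least 3 or at most 0.333, and the 5 genes most correlated with each of the 7 in log2(CPM + 10) at resolution 1.2; Icam1 and Relb were named after their values were seen. Some genes that this rule or the marker lists would name are not reported here. The genes and lists were chosen with earlier results of these data known, and the rule that names a cluster from its markers was set after the clusters were seen. Alternatives were the wells alone, thinned or equally weighted nuclei, other seeds, resolutions, folds, gene and UMI minimums, doublets kept, and nuclei assigned to states by markers (2 or more UMIs). The clustering was tested on simulated counts: it recovered the changed groups at the depth spread of macrophage nuclei, but not in every draw at the wider spread of all nuclei.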

Additional observations from a re-analysis of the deposited data

How the results depend on the processing

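The results most open to the processing were the counts of genes called at 2-fold, which are small numbers that change by 1 or 2. The share of all genes called under each alternative is not given here, so the counts below are not read against a background. For a fold of 1.5 the number of genes higher was 2 in the immediate-early-like, interferon-like and cluster 4 comparisons, and the number lower was 2 in the immediate-early-like, inflammatory-like, interferon-like and cluster 5 comparisons and 1 in cluster 4. For a fold of 3, 0 were higher in the immediate-early-like and resident-like clusters, 0 lower in cluster 5 and in class II-high nuclei, and 1 lower in cluster 1. With resolution 0.5 the immediate-early-like cluster had 2 higher and 0 lower and the inflammatory-like cluster 2 higher and 0 lower; with resolution 1.2 the immediate-early-like cluster had 0 higher. With another seed 0 were higher in the immediate-early-like cluster and 0 lower in class II-high nuclei. With a minimum of 1000 UMIs per nucleus 0 were higher in the immediate-early-like cluster, 1 lower in cluster 4 and 0 lower in cluster 5. With doublets kept 0 were lower in cluster 5 and in class II-high nuclei. With nuclei thinned to 1000 UMIs, which leaves fewer genes above the UMI minimum, 0 were higher in the resident-like cluster and cluster 4 and 0 lower in the immediate-early-like and interferon-like clusters. With each nucleus given the same weight the interferon-like cluster had 2 higher and 2 lower, the resident-like cluster 0 higher and cluster 4 had 2 lower. With nuclei assigned by markers the interferon-like state had 2 higher, the resident-like state 0 higher and the immediate-early-like state 0 lower. Well 1 alone gave 0 higher in the resident-like cluster, 2 lower in the interferon-like cluster and 1 higher, Cd80, in class II-high nuclei; well 2 alone, added after seeing the data, gave 0 higher in the resident-like cluster and 2 lower in cluster 5. Ranking by H2-Aa, H2-Ab1 and H2-Eb1, ranking within cluster and well, and leaving out cluster 5 (added after seeing the data) each gave 0 lower in class II-high nuclei. The cause was not tested except where the construction shows it.

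The other 166 counts were within 1.5 times the value given in the report. Of 511 ratios of single genes under the alternatives, 386 were within their counting interval, and 55 lay on the other side of 1 from the ratio in the report. In 3 of the 55 the reported ratio was past 2-fold: Cd80 in the immediate-early-like cluster, at 1.49 with nuclei assigned by markers and 1.23 at resolution 0.5, and Vsir in the resident-like cluster, at 0.968 in well 1 alone. The other 52 started short of 2-fold and included Cd86 in clusters 4 and 5, at 1.95 and 1.43 in well 2 alone, and Cd86 and Havcr2 in class II-high nuclei, at 0.870 and 0.781 in well 1 alone. Over the alternatives the Cd86 ratio ran from 2.77 to 5.33 and the Cd40 ratio from 2.39 to 7.39 in the inflammatory-like cluster, where the Cd80 ratio ran from 1.23 to 13.2; the Cd80 ratio of cluster 4 ran from 2.56 to 4.28, and the Cd274 ratio from 3.15 to 7.68 in cluster 5. Depth limits Cd80, Cd40, Cd274 and Pdcd1lg2, with 119, 199, 232 and 9 UMIs over all macrophage nuclei. Levels in CPM by cluster were not recomputed on their own, only as ratios; the clustering resolution does not enter the class II ranking, and clusters without a marker list (1, 4 and 5) cannot be assigned by markers. No paired analysis was possible because the matrix pools both samples and no label ties a well to a genotype.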
